A study of Mus musculus with 6 samples.

Results

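The Ikaros family of zinc finger transcription factors comprises Ikzf1 (Ikaros), Ikzf2 (Helios), Ikzf3 (Aiolos), Ikzf4 (Eos) and Ikzf5 (Pegasus). All 5 genes were taken by symbol, whatever their values, from a table of 25759 gene identifiers, and all 5 passed the filter of a mean of at least 1 FPKM that left 13413 genes to test. FPKM count sequenced fragments relative to the length of the transcript and the size of the library. RNA was sequenced from 6 libraries of adaptive regulatory T cells (aTreg), 3 wild type (WT) and 3 deficient in BMPR1a, which binds bone morphogenetic proteins at the cell surface.

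Both groups came from C57BL/6 mice aged 8 to 12 weeks that carried a Foxp3GFP reporter, which marks cells expressing the regulatory T cell factor Foxp3. The deficient mice are labelled BMPR/CD4cre. Cre driven by Cd4 acts from the thymus onward and in all T cells that have passed through Cd4 expression, so the deletion was not restricted to regulatory T cells. No Cre is named for the WT mice. Total lymph node and spleen cells of both groups were activated in culture for 3 days with IL-2 at 10 ng/ml, the T cell mitogen ConA at 2 ug/ml and, at 3 ng/ml, TGF-beta. Cells positive for CD4 and for the Foxp3 reporter were then sorted, so the sort could hold regulatory T cells already present and cells that gained Foxp3 in culture. The labels do not say whether libraries of a group came from separate mice, so p-values measure the spread between these libraries, which may be technical.

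Ikaros family proteins bind DNA through a cluster of zinc fingers near the amino terminus and pair with one another through fingers at the carboxy terminus. They bring chromatin remodelling and histone deacetylase complexes to their targets and act mostly as repressors in lymphocytes. Ikaros and Aiolos are broadly used in lymphoid development, and Helios and Eos are best known from regulatory T cells, where Eos works with Foxp3 to silence genes. Pegasus is the most distant member and recognises a different DNA element.

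The second DNA-binding finger of each gene is shown because the family is defined by these fingers, and because the members' similarity bears on whether reads can be assigned to one gene. Sequences are the coding strand in GRCm38, from the GENCODE transcripts with the longest coding sequence, 63 bases from the first cysteine codon to the last histidine codon. Each lies in a single exon. Capitals mark bases that differ from Ikzf1. The locations in the order below are chr11:11754024-11754086 on the plus strand, then chr1:69570581-69570643, chr11:98488940-98489002, chr10:128640229-128640291 and chr7:131392501-131392563, all on the minus strand.
Ikzf1: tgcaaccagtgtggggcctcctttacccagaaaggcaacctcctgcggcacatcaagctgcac
Ikzf2: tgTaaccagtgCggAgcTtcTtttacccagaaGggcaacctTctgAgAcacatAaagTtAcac
Ikzf3: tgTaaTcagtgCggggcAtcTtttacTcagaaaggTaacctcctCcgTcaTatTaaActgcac
Ikzf4: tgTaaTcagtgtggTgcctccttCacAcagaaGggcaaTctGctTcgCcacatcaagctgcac
Ikzf5: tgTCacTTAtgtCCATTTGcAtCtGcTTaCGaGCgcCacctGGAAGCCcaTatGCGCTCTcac

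Ikzf4 differed from Ikzf1 at 10 of the 63 bases, Ikzf2 and Ikzf3 at 12 each, and Ikzf5 at 37. A search of the coding sequences for the classical cysteine and histidine spacing found 5 such fingers in each of Ikzf1, Ikzf2, Ikzf3 and Ikzf4 and 4 in Ikzf5. Fingers with another spacing are missed by that search. Fingers were matched by number, so with fewer found in Ikzf5 its second finger may not be the counterpart of that in Ikzf1. Across whole transcripts no pair of members shared a run of 50 bases, and the longest shared run, between Ikzf2 and Ikzf4, was 32 bases. The read length is not given in the sources used here.

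The libraries held roughly 29800000 to 37800000 fragments, an estimate from the smallest steps of the FPKM values, since the table carries no counts. Bmpr1a stood at 1.39, 2.34 and 1.31 FPKM in WT replicates 1 to 3 and at 0.439, 0.720 and 0.691 in the deficient replicates. Its groups did not overlap, but the log2 fold change of -0.71 (SE 0.195) had a limma adjusted p of 0.183, and exons left by the recombinase are counted in it. Deficient replicate 1 stood apart in mitochondrially encoded transcripts, with 5330 FPKM summed over 13 protein-coding genes against 44700 to 53800 in the other libraries. T cell markers summed to 3330 to 3430 FPKM in WT and 3210 to 3350 in deficient libraries, and B cell markers to 30.4 to 58.5 and 41.3 to 56.9. CD8 markers ranged from 32.0 to 41.8 and from 37.9 to 68.4. Of these, Cd8a was higher in every deficient library (10.0 ± 1.5 and 20.0 ± 8.05 FPKM, limma adjusted p 0.236). Cd8b1 overlapped, at 25.5 ± 3.99 and 30.1 ± 8.08 FPKM. Myeloid markers ranged from 32.2 to 146 and from 14.7 to 126, and NK markers from 72.6 to 120 and from 15.3 to 42.3. Most of the NK sum was Klrd1, at 84.8 ± 26.2 FPKM in WT and 23.4 ± 12.5 in deficient cells without overlap. Eomes overlapped, at 6.93 ± 2.03 and 4.92 ± 2.57 FPKM. The other 3 of the 5 NK markers were under 1 FPKM in all 6 libraries, and of these Klrb1c was higher in every deficient library (0.0892 ± 0.0317 and 0.669 ± 0.0833 FPKM). None of the markers was listed at 0 in all libraries, and the part of these other cells in the results was not tested. Of the 13413 genes tested with limma, 100 were higher and 43 lower in deficient cells at an adjusted p under 0.05, so 69.9% of the calls were higher. That share was 55.7% with quantile normalization and 87.5% after scaling to equal column sums.

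In deficient aTreg, Eos transcripts rose to 2.50 times the WT level and were the family's only call. Helios stood at 1.86 times, Pegasus at 1.24 times and Aiolos at 1.09 times the WT mean, and Ikaros at 84.2% of it, and none of these passed the adjusted test. The call of 1 of 5 members compares with 1.07% of all genes tested, in which 0.746% were called higher and 0.321% lower. All 5 members had groups that did not overlap, 4 with every deficient library above every WT library and 1 below, where 26.3% of all genes tested did so (15.9% above and 10.4% below). These are levels in bulk RNA, so fewer cells with a transcript and less of it per cell cannot be told apart.

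**Figure D1:**
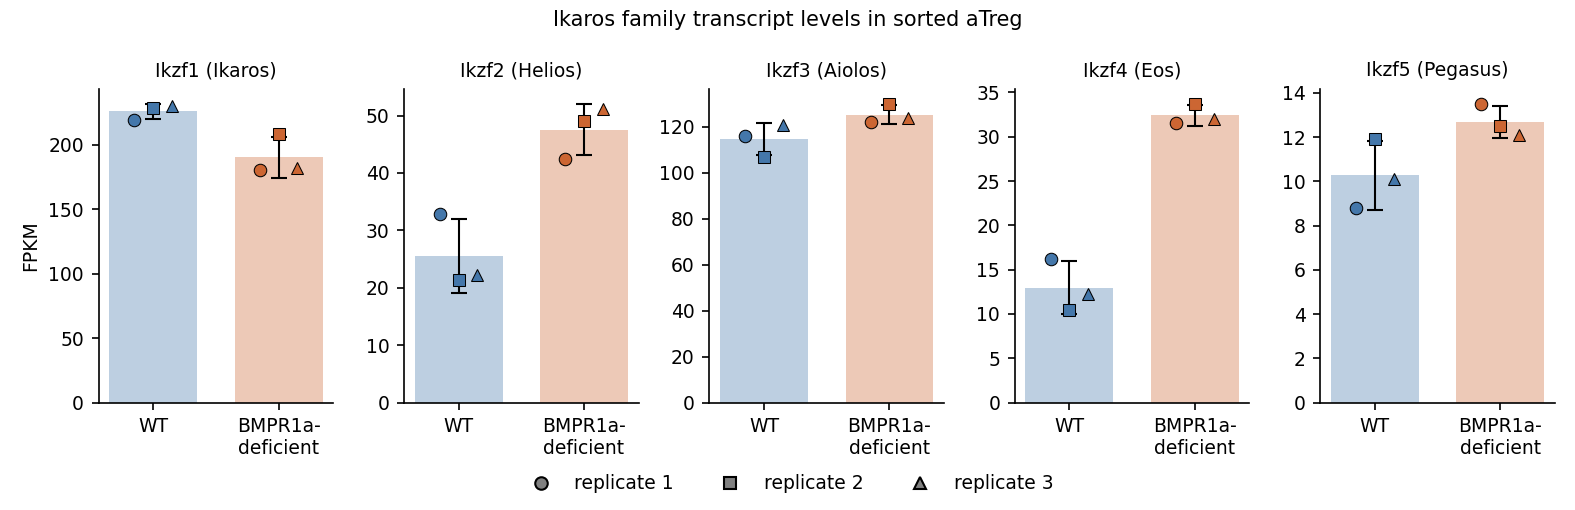
FPKM of each family member in WT and BMPR1a-deficient aTreg, each panel on its own axis from 0. Bars are means of 3 libraries, error bars are SD and points are libraries by replicate number; Ikzf4 rises from 13.0 to 32.4 FPKM and Ikzf1 is the one member with all deficient points below WT.

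Ikzf4, at chromosome 10 from 128630843 to 128645991 on the minus strand (ENSMUSG00000002578, 8 annotated transcripts), encodes Eos. Its level was 16.2, 10.4 and 12.3 FPKM in WT replicates 1, 2 and 3. In the deficient replicates it was 31.5, 33.7 and 32.0 FPKM. The lowest deficient library lay 15.3 FPKM above the highest WT library, and the deficient libraries were close together while WT replicate 1 was the highest of its group. Means were 13.0 ± 2.96 and 32.4 ± 1.15 FPKM (SD, n = 3 each), a coefficient of variation of 22.9% in WT and 3.54% in deficient cells. The log2 fold change, on the scale of log2(FPKM + 1), was 1.28 (SE 0.162, 95% interval 0.88 to 1.68) with a limma adjusted p of 0.0338, and Ikzf4 ranked 85 of all genes tested by p. An exact two-sided permutation test of the 6 values gave p = 0.1, the smallest that 3 against 3 allows.

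The Eos call was lost in 5 of the 6 fits that each left out a library. Leaving out WT replicate 1 gave a limma adjusted p of 0.0337 for Ikzf4, whereas leaving out WT replicate 2 or 3 gave 0.113 or 0.196. Leaving out deficient replicate 1, the library with low mitochondrial transcripts, gave 0.0616 with a log2 fold change of 1.30, and leaving out deficient replicate 2 or 3 gave 0.119 or 0.136. The fold change stayed between 1.14 and 1.44 in those 6 fits.

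**Figure D2:**
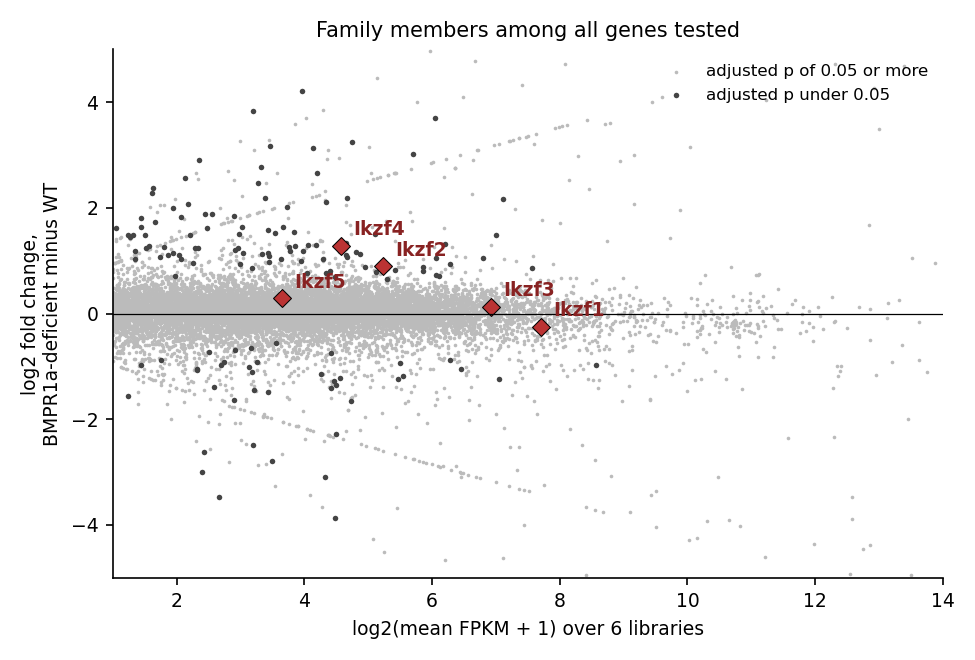
Each of the 13413 genes tested by its log2(mean FPKM + 1) over 6 libraries (horizontal) and its log2 fold change, BMPR1a-deficient minus WT (vertical), with 53 genes outside the axes. Dark points have a limma adjusted p under 0.05 and diamonds are the family members; Ikzf4 and Ikzf2 sit above the bulk of genes of like level, and Ikzf1, Ikzf3 and Ikzf5 lie near 0.

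Ikzf2, at chromosome 1 from 69531214 to 69687245 on the minus strand (ENSMUSG00000025997, 9 transcripts), encodes Helios, a factor of thymus-derived and activated regulatory T cells. The WT libraries held 32.9, 21.4 and 22.3 FPKM of Ikzf2. The deficient libraries held 42.5, 49.0 and 51.1 FPKM. As with Ikzf4, WT replicate 1 was the highest WT library, and the gap between the groups was 9.54 FPKM. Means were 25.5 ± 6.40 and 47.5 ± 4.49 FPKM (SD, n = 3 each). The log2 fold change was 0.89 (SE 0.185, 95% interval 0.44 to 1.34), and the limma adjusted p of 0.104 did not pass the threshold. It passed in 2 of 13 alternatives with all libraries. These were libraries weighted by their fit, at a limma adjusted p of 0.0161, and limma run over protein-coding genes alone, at 0.0442. The weights ran from 0.117 for deficient replicate 1 to 4.18 for deficient replicate 2. With a library left out, the limma adjusted p of Ikzf2 was 0.0663 to 0.381. The exact permutation p was again 0.1.

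Ikzf1, at chromosome 11 from 11685003 to 11772926 on the plus strand (ENSMUSG00000018654, 6 transcripts), was the most abundant member and the one that stood lower in deficient cells. Ikaros, its product, is needed for the lymphoid lineages and restrains T cell activation. WT replicates 1 to 3 held 219, 228 and 230 FPKM of Ikzf1, and the deficient replicates 180, 208 and 182 FPKM. All 3 deficient libraries were below all WT libraries, by at least 10.9 FPKM. Means were 226 ± 5.68 and 190 ± 16.0 FPKM, and the log2 fold change of -0.25 (SE 0.11, 95% interval -0.52 to 0.02) had a limma adjusted p of 0.355. After scaling to equal column sums, which moved the median log2 fold change of all genes from 0.038 to 0.218, Ikzf1 was at -0.05.

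Ikzf3, also on chromosome 11, from 98464902 to 98546031 on the minus strand (ENSMUSG00000018168, 4 transcripts), encodes Aiolos, which is prominent in B cells and in T cells that make IL-17. Its WT libraries held 116, 107 and 121 FPKM and its deficient libraries 122, 130 and 124 FPKM. The groups did not overlap, but only 1.25 FPKM separated the nearest libraries. With means of 114 ± 6.78 and 125 ± 4.18 FPKM, the log2 fold change was 0.13 (SE 0.0985, 95% interval -0.11 to 0.37; limma adjusted p 0.559).

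Ikzf5, at chromosome 7 from 131388652 to 131410521 on the minus strand (ENSMUSG00000040167, 7 transcripts), was the least abundant member. Pegasus transcripts stood at 8.81, 11.9 and 10.1 FPKM in WT and at 13.5, 12.5 and 12.1 FPKM in deficient libraries. The groups were separated by 0.201 FPKM, less than the SD within either. Means were 10.3 ± 1.58 and 12.7 ± 0.701 FPKM, with a log2 fold change of 0.29 (SE 0.126, 95% interval -0.01 to 0.60; limma adjusted p 0.346). Ikzf5 overlaps Pstk, a kinase of selenocysteine tRNA synthesis, on the opposite strand. Pstk was at 12.4 ± 0.408 FPKM in WT and 15.0 ± 2.70 in deficient cells, and limma gave it a log2 fold change of 0.24 with an adjusted p of 0.449. Strand handling is not given in the sources used here, so reads in the overlap of Ikzf5 and Pstk cannot be told apart.

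The members spanned a wide range of levels per transcript length. Ikzf1 stood above 96.6% of the 10362 protein-coding genes tested, Ikzf3 above 93.8%, Ikzf2 above 76.1%, Ikzf4 above 62.9% and Ikzf5 above 42.2%. In WT the order was Ikzf1, Ikzf3, Ikzf2, Ikzf4 and Ikzf5. Successive mean ratios in WT were 1.97, 4.48, 1.97 and 1.26, and only the last pair, Ikzf4 and Ikzf5, had overlapping libraries. The deficient order was the same with ratios of 1.52, 2.63, 1.47 and 2.55, and there no neighbours overlapped.

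Summed FPKM of the 5 members stood at 393, 379 and 395 in WT and 389, 433 and 401 in deficient libraries, and the groups overlapped. The means were 389 ± 9.05 and 408 ± 23.0 FPKM. The make-up of that sum differed, though no test of it was run. Ikzf1 made up 58.1% ± 2.17 of the family's FPKM in WT and 46.5% ± 1.40 in deficient cells, without overlap. Ikzf2 went from 6.56% ± 1.58 to 11.7% ± 0.965 and Ikzf4 from 3.32% ± 0.714 to 7.96% ± 0.164, also without overlap. The shares of Ikzf3 (29.4% ± 1.10 and 30.7% ± 0.697) and Ikzf5 (2.65% ± 0.465 and 3.13% ± 0.303) overlapped between the groups. Helios and Eos together held 12.5%, 8.39% and 8.76% of the family in WT replicates 1 to 3. In the deficient replicates they held 19.0%, 19.1% and 20.7%. Shares are set within a library and do not depend on how whole libraries are scaled.

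**Figure D3:**
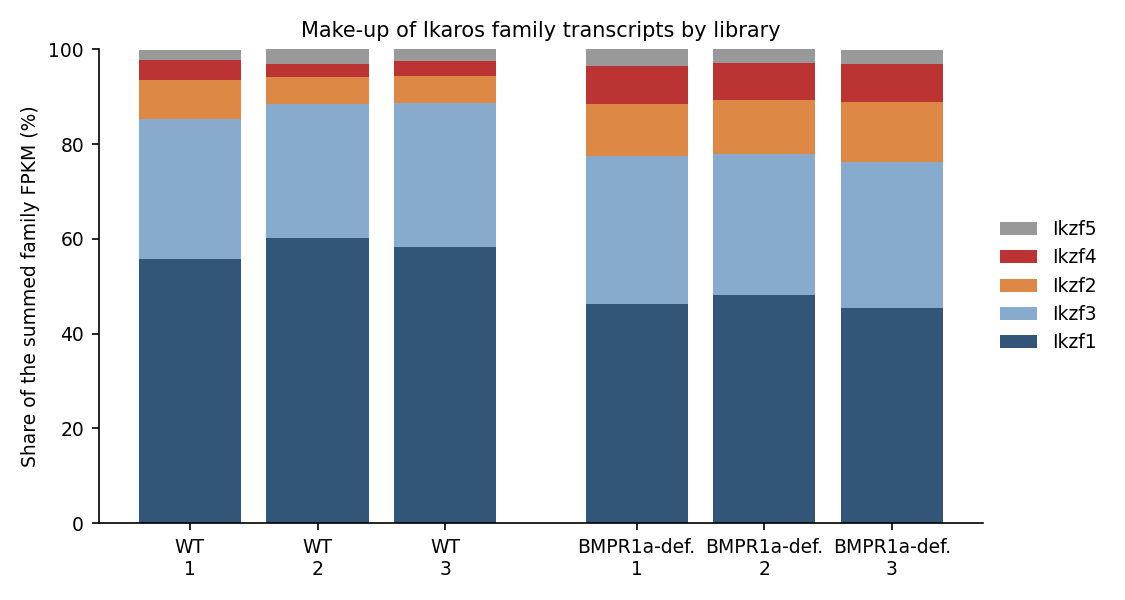
Share of the summed FPKM of the 5 members (vertical, %) held by each gene in each library (horizontal). In the 3 deficient libraries the Ikzf1 segment takes 45.3% to 48.1%, against 55.8% to 60.2% in WT, and the Ikzf2 and Ikzf4 segments are wider.

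Ratios within a library describe the same FPKM values and the same shift, and are no separate evidence of it. Ikzf1 over Ikzf4 was 13.6, 22.0 and 18.7 in WT and 5.71, 6.19 and 5.67 in deficient libraries. Ikzf1 over Ikzf2 averaged 9.20 ± 2.21 and 4.02 ± 0.397, with no overlap. Helios and Eos did not keep a fixed proportion to each other. Ikzf2 over Ikzf4 was 2.03, 2.07 and 1.81 in WT and 1.35, 1.45 and 1.59 in deficient libraries, lower in every deficient library.

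Foxp3, the lineage factor with which Eos works, overlapped between the groups, at 55.9, 49.4 and 62.3 FPKM in WT and 51.3, 96.9 and 72.1 FPKM in deficient libraries. Its log2 fold change was 0.35 (SE 0.241; limma adjusted p 0.523), and 0.58 without deficient replicate 1 or 0.13 without deficient replicate 2. Ikzf4 over Foxp3 was 0.289, 0.210 and 0.198 in WT and 0.614, 0.348 and 0.444 in deficient libraries. Every deficient library therefore had more Eos per Foxp3 than any WT library. Ikzf2 over Foxp3 was 0.589, 0.433 and 0.358 in WT and 0.827, 0.505 and 0.708 in deficient libraries, and these overlapped.

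Likeness between genes was described by Pearson's r of log2(FPKM + 1) over the same 6 libraries, which include both groups, so any gene that differs between the groups scores highly. Ikzf2 and Ikzf4 had r = 0.976, and between 0.961 and 0.987 with each library left out in turn. The protein-coding genes most like Ikzf2 were Itgae (r = 0.999), Pmepa1 (0.996) and Mbtps1 (0.994). Itgae encodes CD103, an integrin chain of tissue-homing regulatory T cells, and stood at 49.5, 13.4 and 15.2 FPKM in WT. In deficient libraries Itgae was at 124, 198 and 195 FPKM (log2 fold change 2.90, limma adjusted p 0.0709). The limma adjusted p of Itgae was 0.0272 without WT replicate 1 and 0.0965 to 0.299 with any other library left out. Pmepa1, a TGF-beta-induced inhibitor of Smad signalling, was at 21.0, 12.1 and 13.5 FPKM in WT and 24.9, 30.1 and 30.9 FPKM in deficient libraries (log2 fold change 0.87, limma adjusted p 0.151). Like Ikzf2, both were highest among WT libraries in replicate 1 and lowest among deficient libraries in replicate 1. Picking them by r with Ikzf2 favoured such a match.

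The genes most like Ikzf4 were Hc (r = 0.998), Cd72 (0.998) and Acsbg1 (0.997). Cd72, an inhibitory receptor best known from B cells, was at 45.8, 36.5 and 40.9 FPKM in WT and 72.0, 73.7 and 72.1 FPKM in deficient libraries. Its log2 fold change was 0.81 with a limma adjusted p of 0.0405. The part of B cells in the Cd72 level was not tested. Acsbg1, an acyl-CoA synthetase, was at 11.0, 7.69 and 9.62 FPKM in WT and 19.2, 20.3 and 19.0 FPKM in deficient libraries (log2 fold change 0.99, limma adjusted p 0.041). Cd72 and Acsbg1 each lost the call whenever a library was left out, with limma adjusted p of 0.0507 to 0.200 for Cd72 and 0.0665 to 0.205 for Acsbg1. With all libraries both also lost it in 5 of 13 alternatives. The limma adjusted p for Cd72 and Acsbg1 was 0.0523 and 0.0804 without the filter and 0.0611 and 0.0608 with upper-quartile scaling. It was 0.0599 and 0.0616 with quantile normalization and 0.0866 and 0.0532 with column-sum scaling. With replicate number fitted as a block it was 0.152 and 0.149. Hc, which encodes complement component C5, was low. Its level was 0.602, 0.162 and 0.371 FPKM in WT and 1.81, 1.91 and 1.92 FPKM in deficient libraries (limma adjusted p 0.0521). Hc passed in 6 of 12 alternatives with all libraries and in 0 of 6 with a library left out.

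For the other members the most similar genes were of several kinds. Ikzf1 was most like Hcst (r = 0.979), the signalling adaptor DAP10, Rpl29 (0.976), a ribosomal protein, and Socs6 (0.972). Ikzf3 was most like Zmym3 (0.98), Pafah2 (0.974) and Senp3 (0.971). Ikzf5 was most like Ppp1r8 (0.997), Atp2a2 (0.995) and Lrpprc (0.993). None of these 9 genes passed the limma test, with log2 fold changes from -1.19 for Rpl29 to 0.38 for Atp2a2. Rpl29 alone passed in any alternative, in 1 of 13 with all libraries and 1 of 6 with a library left out. Its r with Ikzf1 was 0.865 to 0.977 over 4 alternatives with all libraries.

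Neighbouring genes were compared with Ikzf4 and the other members, taking the nearest protein-coding gene on each side. Rps26, a ribosomal protein gene 4096 bp from Ikzf4, was at 3030, 3180 and 2670 FPKM in WT and 1670, 2940 and 2890 FPKM in deficient libraries, with overlap (log2 fold change -0.29, limma adjusted p 0.618). Without deficient replicate 1, the lowest for Rps26, the log2 fold change was -0.017. Suox, the sulfite oxidase gene 23903 bp to the other side, was at 33.4, 23.8 and 23.6 FPKM in WT and 36.3, 54.9 and 55.5 FPKM in deficient libraries. The Suox groups did not overlap, and its log2 fold change of 0.83 (SE 0.221) had a limma adjusted p of 0.174. Next to Ikzf3, Grb7 had a log2 fold change of -0.17 (adjusted p 0.598) and Zpbp2 of -0.39 (0.182) by limma. Beside Ikzf1, 4930512M02Rik was at -0.63 (0.353) and Fignl1 at 0.40 (0.411). Beside Ikzf5, 2310057M21Rik was at -0.01 (0.991) and Acadsb at 0.17 (0.667). Of the neighbours of Ikzf2, Spag16 was at 0.0399 FPKM in WT and 0.0586 in deficient cells, below the filter. The other, Erbb4, was not among the gene identifiers that had FPKM values.

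Partners through which the family acts were measured next. The NuRD remodelling complex, which Ikaros recruits, had 13 of 13 listed subunits tested, of which limma called 0 higher and 0 lower. At an unadjusted p under 0.05, 1 was higher and 0 were lower, where 9.29% and 5.87% of all genes tested were. The median log2 fold change of the list was 0.17 (range -0.26 to 0.49) beside 0.04 for all genes, and 5 subunits were higher and 2 lower without overlap, where 15.9% and 10.4% of all genes tested were. Gatad2a, a scaffold subunit, was at 23.3 ± 2.23 and 29.8 ± 2.11 FPKM (log2 fold change 0.34, limma adjusted p 0.236). Mbd3, the methyl-binding-domain subunit, was at 54.8, 57.5 and 51.1 FPKM in WT and 105, 67.3 and 64.2 in deficient libraries (log2 fold change 0.49, limma adjusted p 0.336). The high value in Mbd3 came from deficient replicate 1, and without that library the log2 fold change was 0.27.

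The Sin3 and CtBP corepressors include CtBP1, a partner of Eos in silencing genes with Foxp3. Of 12 listed genes 11 were tested, and limma called 0 higher and 0 lower, with 1 higher and 0 lower at an unadjusted p under 0.05 (9.29% and 5.87% of all genes tested). The median log2 fold change was 0.17. Without overlap 5 were higher and 0 lower, where 15.9% and 10.4% of all genes tested were. Sin3a, the scaffold of its complex, was at 25.7, 27.5 and 27.4 FPKM in WT and 34.5, 35.8 and 37.5 FPKM in deficient libraries. These Sin3a groups did not overlap and the log2 fold change was 0.40 (SE 0.0854; limma adjusted p 0.108). Sap30 was at 6.11 ± 0.771 and 7.36 ± 0.418 FPKM (log2 fold change 0.24, limma adjusted p 0.378). Ctbp1, singled out for its known role after its values were seen, was at 72.7 ± 2.31 and 82.3 ± 12.2 FPKM (log2 fold change 0.17, limma adjusted p 0.562).

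Turnover of Ikaros and Aiolos is known from human cells, where thalidomide analogues direct the cereblon ubiquitin ligase to both proteins. Protein was not measured here. Of 6 listed ligase genes, including the cereblon substrate Glul, limma called 0 in either direction and 0 had an unadjusted p under 0.05 either way. The median log2 fold change was 0.03 (range -0.34 to 0.25). The lowest was that of Crbn, the cereblon gene, at 56.8 ± 7.35 and 45.4 ± 10.6 FPKM with overlap (limma adjusted p 0.48). Ddb1, the adaptor of the ligase, was at 79.5 ± 11.4 and 92.5 ± 1.79 FPKM with overlap (log2 fold change 0.23, limma adjusted p 0.443). Glul, glutamine synthetase, was at 30.8, 31.4 and 30.6 FPKM in WT and 45.5, 32.4 and 34.2 FPKM in deficient libraries, without overlap (log2 fold change 0.25, limma adjusted p 0.462). The highest Glul value was again in deficient replicate 1, and without that library the log2 fold change was 0.10.

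Of 16 listed genes known as targets of the family, 11 passed the filter and limma called 0 in either direction. At an unadjusted p under 0.05, 3 were higher and 1 was lower, where 9.29% and 5.87% of all genes tested were. The median log2 fold change was 0.13 (range -0.89 to 0.98). Ifng, which Ikaros restrains in helper T cells, was at 1.47, 3.38 and 1.57 FPKM in WT and 4.16, 5.23 and 5.64 FPKM in deficient libraries. Its groups did not overlap (log2 fold change 0.98, limma adjusted p 0.16). Dntt, the terminal transferase gene bound by Ikaros in lymphocyte precursors, was at 1.04, 2.18 and 2.73 FPKM in WT and 0.537, 0.559 and 0.601 FPKM in deficient libraries (log2 fold change -0.89, limma adjusted p 0.184).

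Genes of regulatory T cells gave the setting for Helios and Eos. Of 30 signature genes 27 were tested, and limma called 3 higher and 0 lower. The unadjusted p was under 0.05 for 11 higher and 4 lower genes. Their median log2 fold change was 0.52, with a range from -1.90 to 2.90, and 11 were higher and 5 lower without overlap. The 5 lower genes were Ctla4 (log2 fold change -0.64), Gzmb (-1.90), Pde3b (-1.11), Satb1 (-0.78) and Tcf7 (-0.90). The list was not split into genes that regulatory T cells hold high and genes they hold low. Of all genes tested, 0.746% were called higher and 0.321% lower, 9.29% and 5.87% had an unadjusted p under 0.05, and 15.9% and 10.4% did not overlap. Swap70, a regulator of the actin cytoskeleton, rose from 14.4 ± 0.698 FPKM in WT to 25.9 ± 1.78 (log2 fold change 0.81, SE 0.0927, limma adjusted p 0.0236). Dusp4, a phosphatase of MAP kinases, rose from 42.6 ± 5.85 to 88.5 ± 5.24 FPKM (1.05, SE 0.131, limma adjusted p 0.0326). Tnfrsf9, the costimulatory receptor 4-1BB, rose from 133 ± 8.06 to 243 ± 19.8 FPKM (0.87, SE 0.114, limma adjusted p 0.038). The count of 3 was 3 without deficient replicate 1 and 1 without WT replicate 1, though not of the same genes. It was 0 without WT replicate 2, WT replicate 3, deficient replicate 2 or deficient replicate 3. Without deficient replicate 1, Swap70 and Tnfrsf9 passed (limma adjusted p 0.0297 and 0.0293) and Dusp4 did not (0.0503). Without WT replicate 1, Swap70 (0.0946), Dusp4 (0.0985) and Tnfrsf9 (0.12) all failed, and the gene called was Itgae (0.0272).

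Among 30 other lymphoid transcription factors, 28 were tested and limma called 1 higher and 0 lower. At an unadjusted p under 0.05, 5 were higher and 5 lower, where 9.29% and 5.87% of all genes tested were, and the median log2 fold change was 0.03. Stat5a, which relays IL-2 signals, was the one called. It was at 47.9, 50.7 and 48.9 FPKM in WT and 79.3, 89.5 and 77.9 FPKM in deficient libraries, without overlap (log2 fold change 0.73, SE 0.098, limma adjusted p 0.0399). Without deficient replicate 1 the count was 2, and it was 0 with any other library left out. Without overlap 6 were higher and 7 lower, where 15.9% and 10.4% of all genes tested were. The log2 fold change of Ikzf4, 1.28, lay above those of all 28, whose highest was 0.73, and that of Ikzf2, 0.89, did too. On the lower side Tcf7 was at -0.90 and Lef1 at -0.89, both uncalled and about as far from 0 as Ikzf2.

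**Figure D4:**
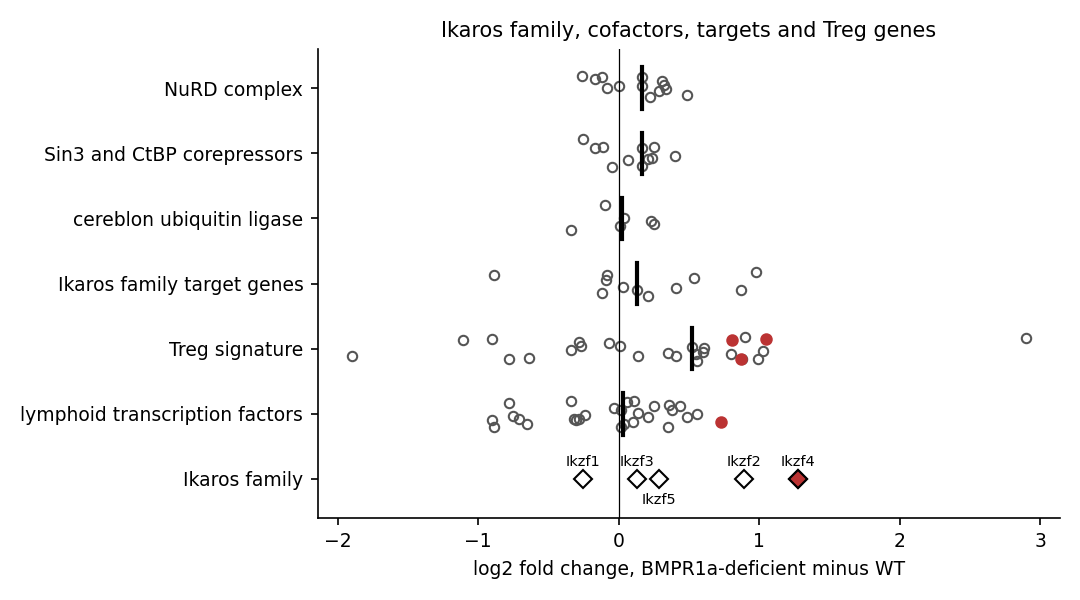
Log2 fold change, BMPR1a-deficient minus WT (horizontal), of each tested gene in 6 lists and of the 5 family members (bottom, diamonds). Black bars are list medians and filled red symbols have a limma adjusted p under 0.05; these are 3 signature genes, Stat5a and Ikzf4, and the medians of the cofactor lists are at 0.17.

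**Figure D5:**
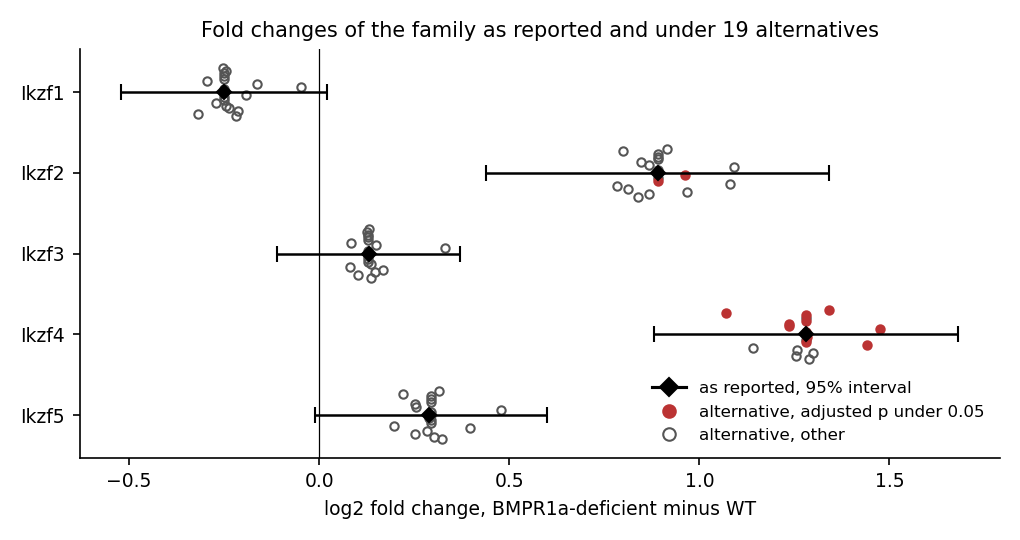
Log2 fold change of each family member (horizontal) as reported, with its 95% interval (diamonds), and under 19 other settings (circles, filled red where the limma adjusted p was under 0.05). Ikzf4 lies between 1.07 and 1.48 and passes in 12 settings, Ikzf2 passes in 2, and Ikzf1 stays below 0 in all.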

How the data were processed

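Each library has one column of FPKM in the table the authors deposited. The submitters' processing notes name TopHat2, Cufflinks and Cuffdiff and the genome build GRCm38.p4. The sources used here do not state versions, settings, strand handling or scaling between libraries, all of which can move FPKM. Without counts, a log-scale linear model replaced a count test. Ensembl identifiers were matched to the GENCODE M21 annotation of GRCm38, which gave a symbol to 24876 of 25759 (96.6%).

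limma 3.58.1 (R 4.3.3) was run on log2(FPKM + 1) for 13413 genes whose mean over the libraries reached 1 FPKM, comparing the groups with trended eBayes, two-sided, and Benjamini-Hochberg adjusted p-values called under 0.05. This scale understates changes of low genes. The script was tested on simulated data. Members and lists were chosen with earlier results of these data known, and lists were only counted. Besides the members, Bmpr1a and Foxp3, named genes were up to 4 called genes of a list by adjusted p, or 2 where none was called, the 3 genes most correlated with each member, and each member's neighbours. Depth was estimated from the smallest FPKM steps and is approximate, so no counting interval is given.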

Additional observations from a re-analysis of the deposited data

How the results depend on the processing

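All 5 members kept their direction under 19 alternatives. Eos passed in 11 of 13 alternatives with all libraries and in 1 of 6 with a library left out (log2 fold change 1.14 to 1.44); without a filter its value was 1.28 (limma adjusted p 0.073). Helios passed with sample weights (0.96) and with protein-coding genes alone (0.89), and in 0 of 6 fits with a library left out. Replicate numbers are shared between groups. Deviations of same-numbered libraries from their group means correlated at 0.01, 0.064 and 0.052, and not every library correlated best with its own number. With 3 libraries per group such values cannot tell whether the numbers pair the libraries. The main fit did not pair them. With the replicate block Ikzf4 was at 1.28 (limma adjusted p 0.13), the counts of all genes were 5 higher and 5 lower, and the signature and transcription factor counts were 0. Sample weights gave 833 higher and 407 lower genes; 2 corepressors, 1 target, 13 signature genes and 4 transcription factors were higher, and 1 target, 2 signature genes and 3 transcription factors were lower. Protein-coding genes alone gave 202 higher and 94 lower, with 8 signature genes higher and 1 lower and 1 transcription factor lower. Lower genes numbered 27 without a filter or with a minimum of 5 FPKM, 70 with quantile normalization and 13 with column-sum scaling, where 1 signature gene and 0 transcription factors were higher. With a library left out, 10 to 134 genes were higher and 4 to 76 lower, with 0 to 3 signature genes and 0 to 2 transcription factors higher and 0 to 1 of each lower. Signs turned for Socs6 (0.05) and Grb7 (0.008) with column-sum scaling, Rps26 with weights (0.014), and 2310057M21Rik with column-sum scaling (0.158), with weights (0.195) and with a library left out (-0.094 to 0.135; 0.11 without WT replicate 2 and 0.135 without deficient replicate 1). The cause of these changes was not tested. Approximate depth gave Ikzf5, the lowest member, 73 fragments in its thinnest library if all came from its shortest coding transcript and 1200 if from its longest.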

Other observations

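Some genes of the lists fell below the filter and were not tested. Among targets of the family, Hes1, Notch3, Ptcra, Igll1 and Vpreb1 had a mean under 1 FPKM over the 6 libraries, and Ptcra, the pre-T cell receptor chain of thymocytes, was listed at 0 in all of them. Ctbp2, the relative of Ctbp1, stood at a mean of 0.697 FPKM in WT and 0.162 in deficient libraries.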
